A study of Rattus norvegicus with 8 samples.

Results

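Synaptic adhesion genes encode the cell-surface proteins that join the axon terminal to the dendrite across the synaptic cleft. The set described here was a list of 42 such genes, chosen by gene symbol, and 38 of them had a row in a deposited count table of 16871 gene symbols. All 38 passed the low-count filter that left 11372 genes for testing. Lrrtm1, Ptprd, Cntnap2 and Tenm1 were not analysed here. The counts are of newly made RNA. They come from BrU-seq, which feeds living cells bromouridine and then pulls down and sequences the RNA that has taken it up.

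Hippocampal and cortical neurons of newborn (P1-P2) Sprague Dawley rats were grown together, in samples labelled as hippocampal neuron culture. Tetrodotoxin (TTX) blocks voltage-gated sodium channels and so silences action potentials. Each group is named by its earlier and its later treatment, T for TTX and H for the water vehicle. TT cultures received TTX for 24 h from day 14 in vitro and TTX again for 4 h on day 17, after 48 h of washout. TH cultures received TTX and then vehicle, HT cultures vehicle and then TTX, and HH cultures vehicle at both times. The first TTX dose was 1 µM, and 2 mM bromouridine was present for the last 30 min in every group. Each group had 2 libraries. The labels leave unsaid whether the 2 are separate cultures or animals. The p-values thus rest on differences between libraries that may be technical.

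Neurexins on the axon terminal bind neuroligins and LRRTM proteins on the dendrite, and such pairs help organise release sites and receptor clusters opposite each other. Receptor phosphatases of the LAR family play a like presynaptic part, and their postsynaptic ligands include SLITRK proteins, IL1RAPL1, some SALM proteins (Lrfn genes) and a netrin-G ligand, NGL-3 (Lrrc4b). Teneurins and FLRT proteins bind latrophilins, contactins and contactin-associated proteins act along axons and at contacts, and SynCAM proteins (Cadm genes) and calsyntenins add further cell-to-cell links. In neurons silenced with TTX the strength of excitatory synapses is known to scale up, a response termed homeostatic scaling, and the study asked whether an earlier silence alters a later one.

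Library totals ran from 3489176 to 4959887 counts, and the 38 genes together took from 1.86% to 2.41% of them. Their counts ran from 26 for Slitrk2 in HH replicate 1 up to 24706 for Nrxn3 in TH replicate 2, and the 5 SLITRK genes had at most 135 in any library. Levels are given as CPM, the count scaled to the normalized size of its library. CPM is not divided by gene length, so levels are compared between libraries and not between genes. Excitatory and inhibitory neuron markers were present in all libraries, with summed levels of 955 to 1305 CPM over 8 genes and 586 to 1132 CPM over 10 genes. Astrocyte markers summed to 1420.4 to 2074 CPM over 9 genes, and Pvalb, Cldn5 and P2ry12 were at or near 0. In bulk cultures like these, fewer cells of a type and less RNA per cell cannot be told apart.

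No synaptic adhesion gene passed the adjusted threshold of 0.05 in any of the 7 comparisons (edgeR quasi-likelihood test, Benjamini-Hochberg adjustment over 11372 genes). Across all genes tested the share called by edgeR was 0% in each comparison as well. DESeq2 called 0 of the 38 in each, and over all 14917 genes it was given it called 12 for the second TTX averaged over history and 0 in the other 6 comparisons. Without adjustment, a p under 0.05 was found for 6 of the 38 in HT versus HH (6.49% of all tested genes), 0 in TT versus TH (2.64%), 3 in TH versus HH (4.08%) and 1 in TT versus HT (2.35%). The interaction had 2 (1.64%), the second TTX averaged over history 4 (6.94%) and history averaged over the second treatment 2 (5.75%). The genes below are therefore described by their levels and fold changes and none is called changed.

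**Figure D1:**
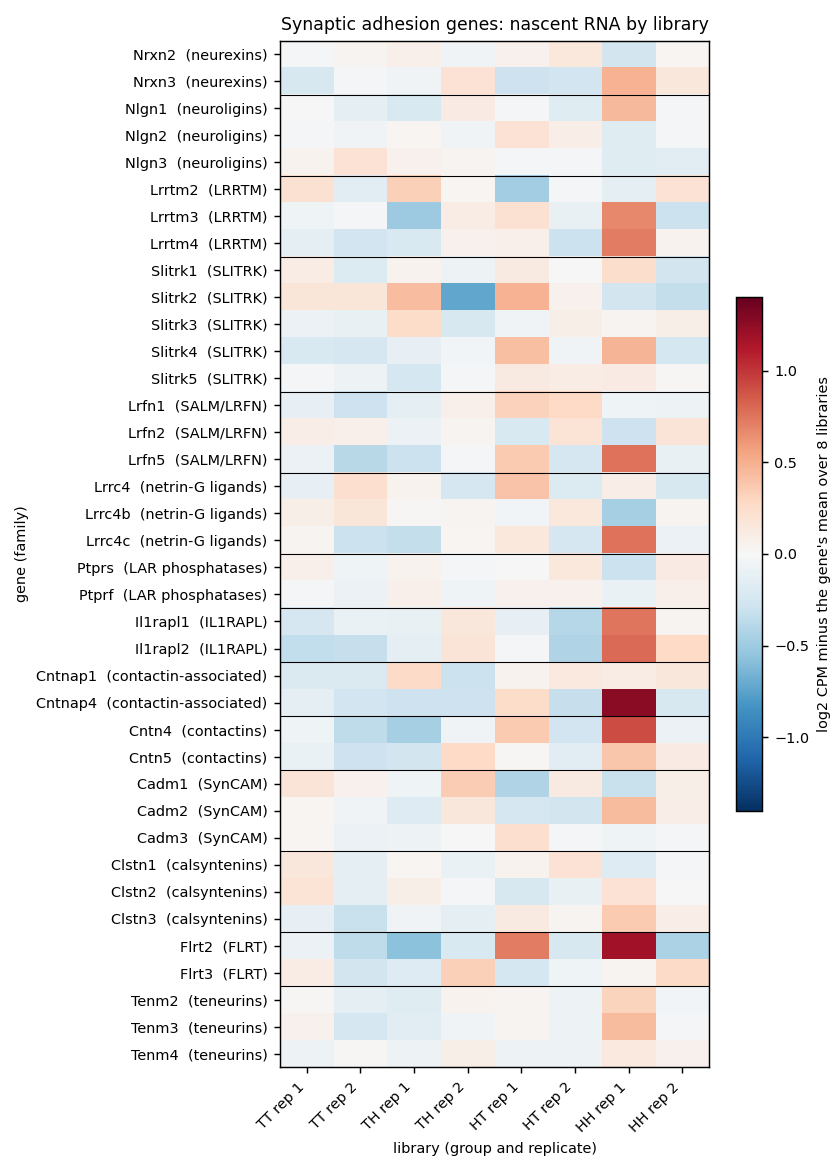
Nascent RNA of the 38 synaptic adhesion genes in each of the 8 libraries, as log2 CPM minus the gene's own mean over the libraries; rows are genes grouped by family and columns are libraries. HH replicate 1 stands out, with the highest value of 20 genes and the lowest of 8.

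The widest differences lay between libraries of 1 group. HH replicate 1 had the highest value of 20 of the 38 genes (52.6%), against 21.6% of all tested genes. It had the lowest value of another 8 (21.1%), against 22.3% of all tested genes. HH replicate 2, given the same treatments, had the highest value of 1 gene (11.8% of all tested genes) and the lowest of 2 (12.3%). Flrt2, which encodes a ligand of latrophilins, had 142 and 118 CPM in TT, 101 and 129.7 in TH, 247 and 129 in HT, and 340.2 and 110.3 in HH. HH replicate 1 was the highest library and HT replicate 1 the next, while the other 6 lay between 101 and 142 CPM. Cntnap4, a contactin-associated protein known from interneuron synapses, had 199.6 and 182 CPM in TT, 179.8 and 180.1 in TH, 262 and 176 in HT, and 529 and 188 in HH. Here too HH replicate 1 stood highest with HT replicate 1 after it, and the other 6 libraries were close together.

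In some families paralogues went different ways in HH replicate 1. Nrxn3 was at its highest there and Nrxn2 at its lowest, with log2 deviations from the gene's mean of 0.49 and -0.26. Nlgn1 deviated by 0.46, against -0.17 for Nlgn2 and -0.17 for Nlgn3. Among netrin-G ligands Lrrc4c stood at 0.76 and Lrrc4b at -0.46, and among SALM genes Lrfn5 stood at 0.76 and Lrfn2 at -0.29. Lrrtm3 and Lrrtm4 stood at 0.68 and 0.71, and Lrrtm2 at -0.12. In other families they went together. Il1rapl1 and Il1rapl2 stood at 0.75 and 0.79, and Cntn4 and Cntn5 at 0.91 and 0.38. Tenm2, Tenm3 and Tenm4 were all above 0 and Ptprs and Ptprf below it. The 8 genes lowest in HH replicate 1 were Nrxn2, Nlgn2, Nlgn3, Lrfn2, Lrrc4b, Ptprs, Ptprf and Clstn1.

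In 11 of the 38 genes HH replicate 1 and HT replicate 1 were the 2 highest libraries, against 9.44% of all tested genes. These were Lrrtm3, Lrrtm4, Slitrk1, Slitrk4, Slitrk5, Lrfn5, Lrrc4c, Cntnap4, Cntn4, Clstn3 and Flrt2, named after their values were seen. The same libraries were the 2 lowest for Lrfn2, Lrrc4b and Cadm1, against 8.63% of all tested genes. In 9 of the 38 genes the gap between the HH replicates exceeded 1.5-fold, against 16.9% of all tested genes. In HT it was 4 genes (10.2% of all tested genes), in TH 2 (9.13%) and in TT 0 (7.09%). Activity-response genes, which firing neurons transcribe, moved with this pattern. The summed level of 10 activity-response markers was 419 and 402 CPM in TT, 388 and 432 in TH, 565 and 420.0 in HT, and 1372 and 394 in HH. Their part in the result was not tested. Each of the 10 was above 0 in every library.

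**Figure D2:**
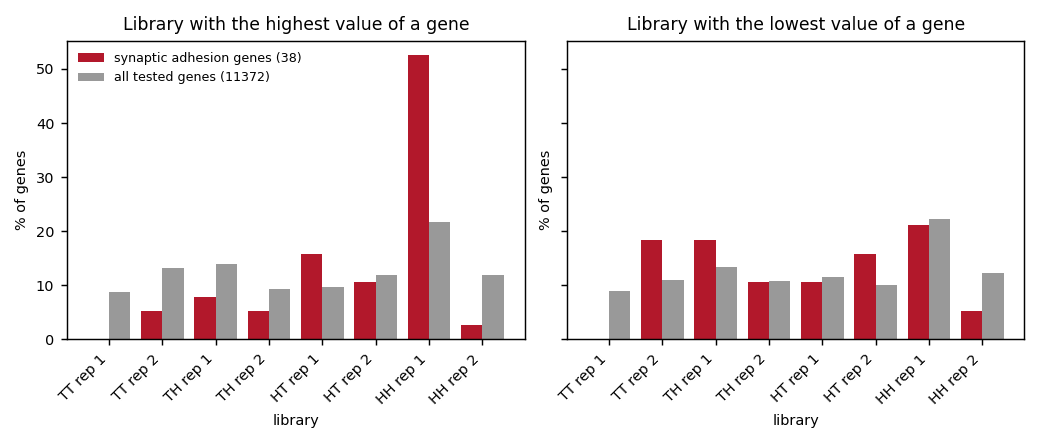
Share of the 38 synaptic adhesion genes and of the 11372 tested genes that had their highest (left) or lowest (right) CPM in each library, in % of genes. HH replicate 1 held the highest value of 52.6% of the adhesion genes and of 21.6% of all tested genes.

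Promoter sequence was looked at because activity-response genes are known to be driven in part through the cyclic AMP response element (CRE). RefSeq promoters (GRCr8) were matched by symbol for 33 of the 38 genes. Nrxn2, Nrxn3, Cntnap1, Cntnap4 and Cadm1 were not matched. The 250 bases before each gene's start were searched on both strands for the CRE, TGACGTCA, which reads the same on either strand. It was found in 6 of 33 adhesion gene promoters (18.2%), against 1.59% of 33469 promoters of the same length and 3.04% of the 8627 that belong to tested genes. The shorter TGACG, which every CRE contains, was found in 7 of 33 (21.2%), against 18.2% of all promoters and 28.5% of those of tested genes. The AP-1 motif TGANTCA was found in 5 of 33 (15.2%), against 6.34% of all promoters and 4.13% of those of tested genes. TATAAA was found in 0 of 33, against 12.9% and 6.26%. The median GC content of the windows was 56.0% for the 33 and 51.2% over all promoters, which these shares do not allow for. A match describes these letters and does not show a bound site. The 6 CRE stretches are printed, each 60 bases, 5′ to 3′ on the gene's strand, with the CRE in capitals.
Clstn3 (chr4:159051180-159051239, minus strand, CRE beginning 144 bases before the start): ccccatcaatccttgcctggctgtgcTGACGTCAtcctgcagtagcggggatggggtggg
Clstn2 (chr8:107516422-107516481, minus strand, 53 bases before): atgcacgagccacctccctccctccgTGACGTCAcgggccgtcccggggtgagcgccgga
Ptprs (chr9:1394105-1394164, minus strand, 47 bases before): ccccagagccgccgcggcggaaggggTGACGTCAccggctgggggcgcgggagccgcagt
Tenm3 (chr16:50260701-50260760, plus strand, 62 bases before): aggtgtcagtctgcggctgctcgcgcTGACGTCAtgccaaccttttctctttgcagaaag
Lrrtm2 (chr18:27097008-27097067, minus strand, 74 bases before): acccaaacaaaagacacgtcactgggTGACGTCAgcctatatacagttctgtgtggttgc
Slitrk2 (chrX:150291521-150291580, plus strand, 44 bases before): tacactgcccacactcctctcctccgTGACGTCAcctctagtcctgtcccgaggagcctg

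The 6 genes with a CRE did not share a pattern over the libraries. Clstn3, Clstn2 and Tenm3 were highest in HH replicate 1, with log2 deviations of 0.36, 0.20 and 0.45. Ptprs was at its lowest there (-0.30), and Lrrtm2 (-0.12) and Slitrk2 (-0.26) were neither highest nor lowest. Flrt2, Lrfn5, Lrrc4c and Lrrtm3, all highest in HH replicate 1, held none of the 4 motifs in this window. Cntn4 and Lrrtm4 held an AP-1 match.

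HT versus HH asks what 4 h of silence did to cultures never silenced before. Of the 38 genes, 23 lay below 0 (60.5%), against 49.8% of all tested genes, and the median log2 change was -0.16, against 0.00071 over all tested genes. Of the 6 genes with an unadjusted p under 0.05, 5 were lower (13.2% of the 38), against 2.73% of all tested genes, and 1 was higher, against 3.75%. Both HT libraries lay below both HH libraries in 9 of 38 genes, against 16.7% of all tested genes, and above them in 6, against 18.6%. These values differed with and without HH replicate 1. Without it 1 gene, Il1rapl2, had an unadjusted p under 0.05 (5.68% of all tested genes in that fit), the median was 0.020 and 18 genes lay below 0. With HH replicate 1 and HT replicate 1 both left out the direction turned for 5 genes. With HH replicate 1 alone left out it turned for 11, Lrrtm3, Lrfn2, Lrfn5, Lrrc4c, Ptprs, Ptprf, Cntnap4, Cntn4, Flrt2, Tenm2 and Tenm3. The count was 16 with HH replicate 2 left out (13.2% of all tested genes) and 3 with HT replicate 2 left out (3.99%). In each such fit the library left in its group is assumed to vary like the other groups.

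**Figure D3:**
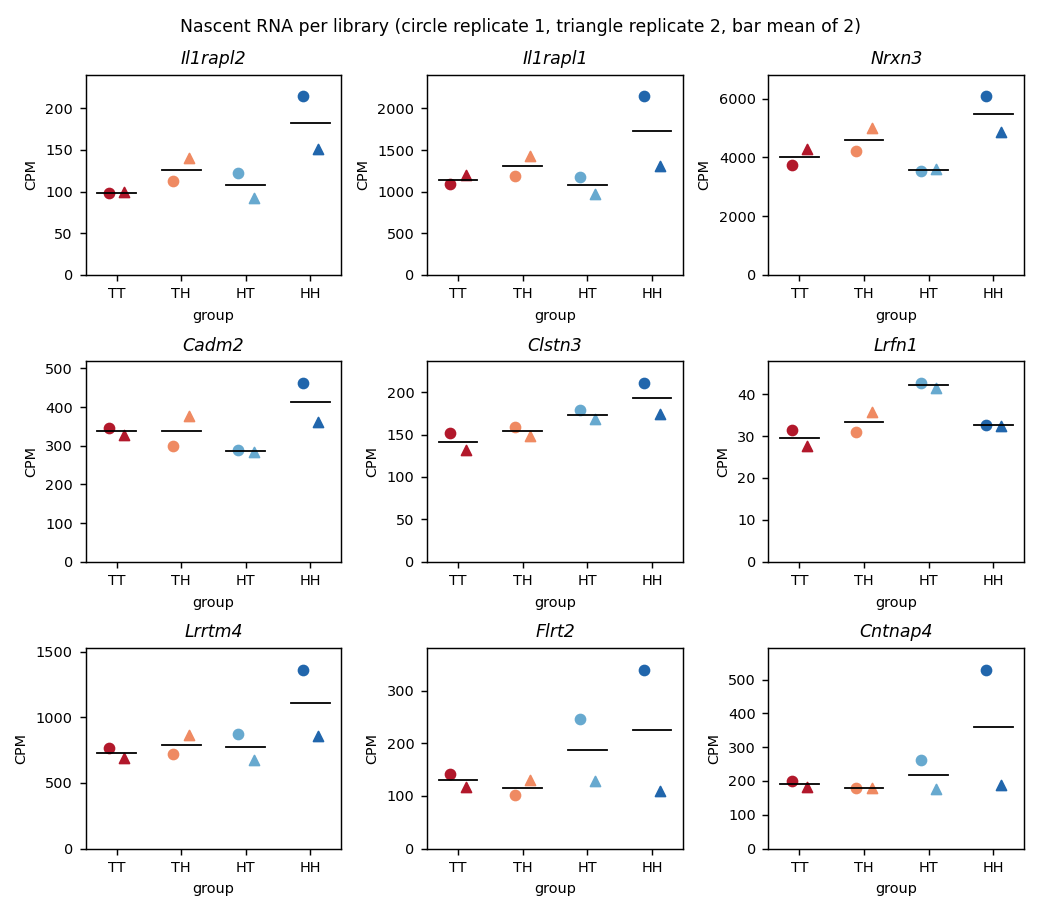
CPM in each library for 9 synaptic adhesion genes, with groups on the x axis, a circle for replicate 1, a triangle for replicate 2 and a bar for the mean of the 2. Il1rapl2 was lower in both TT than in both TH libraries and lower in both HT than in both HH libraries; Flrt2 and Cntnap4 were high in HH replicate 1.

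Il1rapl2, a receptor-like relative of the interleukin-1 receptor accessory protein, had the smallest p of the set under the second TTX. It had 97.9 and 99.4 CPM in TT, 112 and 140.2 in TH, 122 and 92.6 in HT, and 215 and 151 in HH. The TT libraries lay below the TH libraries and the HT libraries below the HH libraries. Its log2 change was -0.76 ± 0.19 in HT versus HH (SE, n = 2 per group; edgeR unadjusted p = 0.00233, adjusted p = 0.588). In TT versus TH it was -0.36 ± 0.19 (unadjusted p = 0.0881, adjusted p = 1.00, edgeR). Averaged over history it was -0.56 ± 0.14 (unadjusted p = 0.00176, adjusted p = 0.293, edgeR), rank 67 among all genes tested. The direction held without HH replicate 1, at -0.48 ± 0.18 in HT versus HH and -0.42 ± 0.12 averaged over history. It also held with HH replicate 1 and HT replicate 1 both left out, at -0.70 ± 0.19, -0.37 ± 0.13 and -0.53 ± 0.12 in the 3 comparisons. With HH replicate 2 left out, and so set against HH replicate 1 alone, its HT versus HH value was -0.999 and passed the adjusted threshold (edgeR adjusted p = 0.0314). Counts behind these values were 330 to 696 per library.

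Because Il1rapl2 had the smallest p of the set, the 250 bases before its start are printed, 5′ to 3′ on the plus strand, with the TGACG match in capitals.
Il1rapl2 (chrX:105753515-105753764): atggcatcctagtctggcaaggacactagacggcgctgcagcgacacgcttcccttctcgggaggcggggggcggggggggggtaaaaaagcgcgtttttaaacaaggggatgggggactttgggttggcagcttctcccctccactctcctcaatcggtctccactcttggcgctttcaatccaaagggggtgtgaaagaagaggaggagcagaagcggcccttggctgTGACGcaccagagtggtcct

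Il1rapl1, its paralogue and a ligand of LAR phosphatases, had 1089 and 1202 CPM in TT, 1189.5 and 1431 in TH, 1182 and 973 in HT, and 2149.7 and 1314 in HH. Both HT libraries were below both HH libraries, and HH replicate 1 was far above the rest. The log2 change was -0.68 ± 0.23 in HT versus HH (edgeR unadjusted p = 0.0109, adjusted p = 0.707), and -0.19 ± 0.22 in TT versus TH, where the libraries overlapped. The HT versus HH value was -0.28 ± 0.20 without HH replicate 1.

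Nrxn3, a presynaptic neurexin, had 3732 and 4276 CPM in TT, 4217 and 4999.7 in TH, 3556 and 3599.7 in HT, and 6096 and 4867 in HH. The HT libraries were nearly equal and the lowest of the 8, while the TT and TH libraries overlapped. The log2 change was -0.62 ± 0.20 in HT versus HH (edgeR unadjusted p = 0.00882, adjusted p = 0.680), -0.20 ± 0.19 in TT versus TH and -0.41 ± 0.14 averaged over history (edgeR unadjusted p = 0.0123, adjusted p = 0.509). The value averaged over history was -0.33 ± 0.14 without HH replicate 1. Nrxn2 went the other way in HT versus HH, at 0.21 ± 0.15, and its 8 libraries spanned only 625 to 828 CPM.

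Of the neurexin ligands, Lrrtm4 had the lowest p in HT versus HH. It had 762 and 692 CPM in TT, 717 and 868 in TH, 871 and 672 in HT, and 1362 and 859 in HH. HT replicate 1 was above HH replicate 2, so the groups overlapped, and the log2 change was -0.52 ± 0.22 (edgeR unadjusted p = 0.0359, adjusted p = 0.754). It was -0.15 ± 0.20 without HH replicate 1. Lrrtm3 had 227 and 234 CPM in TT, 166 and 254 in TH, 274 and 220.1 in HT, and 378 and 192 in HH, with HH replicate 1 and HT replicate 1 highest, and Lrrtm2 lay between 19.1 and 34.0 CPM. These 2 genes stood in HT versus HH at -0.20 ± 0.33 and -0.30 ± 0.23, and Lrrtm3 at 0.37 ± 0.23 without HH replicate 1. With HT replicate 1 left out as well, Lrrtm3 stood at 0.20 ± 0.24. The neuroligins, which also bind neurexins, were split. Nlgn1, the form known from excitatory synapses, had 1304 and 1194 CPM in TT, 1129.6 and 1412 in TH, 1281 and 1167 in HT, and 1797 and 1283 in HH. Apart from HH replicate 1 these values were close together, and the log2 change was -0.33 ± 0.19 in HT versus HH and -0.026 ± 0.19 in TT versus TH. Nlgn2, the form known from inhibitory synapses, had 134 and 132 CPM in TT, 139.8 and 132 in TH, 158 and 147 in HT, and 122 and 136 in HH. Both HT libraries were above both HH libraries (0.24 ± 0.12, edgeR unadjusted p = 0.0652, adjusted p = 0.785), while TT and TH overlapped (-0.028 ± 0.12). Nlgn3 was 0.13 ± 0.12 in HT versus HH and 0.081 ± 0.12 in TT versus TH.

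Cadm2, a SynCAM protein, had 346 and 328 CPM in TT, 299 and 378 in TH, 289 and 283 in HT, and 463 and 362 in HH. Both HT libraries lay below both HH libraries, with a log2 change of -0.53 ± 0.16 (edgeR unadjusted p = 0.00649, adjusted p = 0.637), whereas the TT values lay inside the range of the TH values (-0.0070 ± 0.16). Leaving HH replicate 1 out brought it to -0.34 ± 0.17. Cadm1, also known as SynCAM1, had 1597 and 1471 CPM in TT, 1353 and 1806 in TH, 1052 and 1535 in HT, and 1140.2 and 1495 in HH. HT replicate 1 and HH replicate 1 were its lowest libraries, and it stood at -0.027 ± 0.22 in HT versus HH and -0.043 ± 0.22 in TT versus TH. Cadm3 was flat, with 0.16 ± 0.13 and 0.0017 ± 0.13 in the same comparisons and a range over the 8 libraries of 89.0 to 112 CPM.

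Lrfn1, which encodes a SALM protein, was the gene with an unadjusted p under 0.05 and a higher level in HT than in HH. It had 31.4 and 27.7 CPM in TT, 30.9 and 35.8 in TH, 42.7 and 41.5 in HT, and 32.7 and 32.3 in HH. The HT libraries were the 2 highest of the 8, with a log2 change of 0.37 ± 0.15 against HH (edgeR unadjusted p = 0.0332, adjusted p = 0.754). In TT versus TH it was -0.18 ± 0.15 and the libraries overlapped. Counts of 106 to 177 per library lay behind these values. Lrfn5, of the same family, had 683 and 555 CPM in TT, 591 and 718 in TH, 933 and 617 in HT, and 1233 and 675 in HH. Its HH replicates differed by more than any change between groups, and it stood at -0.30 ± 0.30 in HT versus HH. It stood at 0.20 ± 0.24 without HH replicate 1, and at -0.13 ± 0.23 with HT replicate 1 left out as well. Lrfn2, with 68.8 to 96.0 CPM, stood at 0.033 ± 0.18.

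The remaining families moved little or with wide errors in HT versus HH. Among netrin-G ligands, Lrrc4c had 1026 and 815 CPM in TT, 794 and 1021 in TH, 1106 and 849.8 in HT, and 1692 and 943 in HH. Its log2 change was -0.43 ± 0.27 in HT versus HH and 0.019 ± 0.27 in TT versus TH. Without HH replicate 1 the HT versus HH value was 0.056 ± 0.22. With HT replicate 1 left out as well it was -0.15 ± 0.25. In HT versus HH, Lrrc4 stood at 0.20 ± 0.23 and Lrrc4b at 0.25 ± 0.16. The LAR phosphatase gene Ptprs had 422 and 386 CPM in TT, 415 and 397 in TH, 401 and 444 in HT, and 327 and 435 in HH. HH replicate 1 was its lowest library, and the log2 change was 0.15 ± 0.16 in HT versus HH and -0.0074 ± 0.16 in TT versus TH. Ptprf had the smallest ratio of highest to lowest value among the 38 genes, 1.13, at 121 to 137 CPM, both ends of it in HH.

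Contactin gene Cntn5 had 609 and 532 CPM in TT, 545 and 788 in TH, 656 and 589 in HT, and 849.7 and 702 in HH. Both HT libraries were below both HH libraries (-0.32 ± 0.19), and TT and TH overlapped (-0.23 ± 0.19, a value that turned to 0.066 without TH replicate 2). Cntn4, whose values are given because its HH replicates differed so widely, had 452 and 369 CPM in TT, 342 and 455 in TH, 611 and 392 in HT, and 890.4 and 446 in HH. Its HT versus HH value was -0.41 ± 0.35, and that of Cntnap4 -0.71 ± 0.45. Both turned without HH replicate 1, to 0.17 ± 0.27 for Cntn4 and 0.22 ± 0.20 for Cntnap4. With HT replicate 1 left out as well they stood at -0.19 ± 0.23 and -0.095 ± 0.17. Cntnap1, known from the axon beside the node of Ranvier, lay between 22.7 and 34.0 CPM. Calsyntenin gene Clstn2 had 566 and 453 CPM in TT, 522 and 486 in TH, 422 and 458 in HT, and 569 and 497 in HH. Both HT libraries were below both HH libraries, with a log2 change of -0.28 ± 0.15 against 0.016 ± 0.15 in TT versus TH. Clstn1 lay between 273 and 355 CPM and stood at 0.22 ± 0.14 in HT versus HH.

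Of the teneurins, Tenm4 had a highest value only 1.16 times its lowest, and Tenm3 1.60 times. Tenm2 had 2172 and 1944 CPM in TT, 1899.7 and 2212 in TH, 2202 and 2041 in HT, and 2664 and 2079 in HH. HH replicate 1 was above the rest, which lay within 1899.7 and 2212 CPM. Tenm2, Tenm3 and Tenm4 stood at -0.16 ± 0.18, -0.24 ± 0.18 and -0.17 ± 0.15 in HT versus HH, and at 0.0012 ± 0.18, 0.022 ± 0.17 and -0.032 ± 0.15 in TT versus TH. Their partners by way of latrophilins, Flrt2 and Flrt3, stood at -0.26 ± 0.56 and -0.32 ± 0.21 in HT versus HH. Flrt2 stood at 0.77 ± 0.34, in the opposite direction, without HH replicate 1. With HT replicate 1 left out as well, Flrt2 stood at 0.22 ± 0.21. Of the SLITRK genes, Slitrk1 had 30.9 and 25.1 CPM in TT, 29.8 and 27.3 in TH, 31.3 and 28.6 in HT, and 34.2 and 24.0 in HH. Its groups overlapped throughout, and Slitrk2, with 26 to 55 counts per library, had the widest error of the family at 0.62 ± 0.36. The log2 changes of Slitrk3, Slitrk4 and Slitrk5 lay between -0.043 and 0.068.

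**Figure D4:**
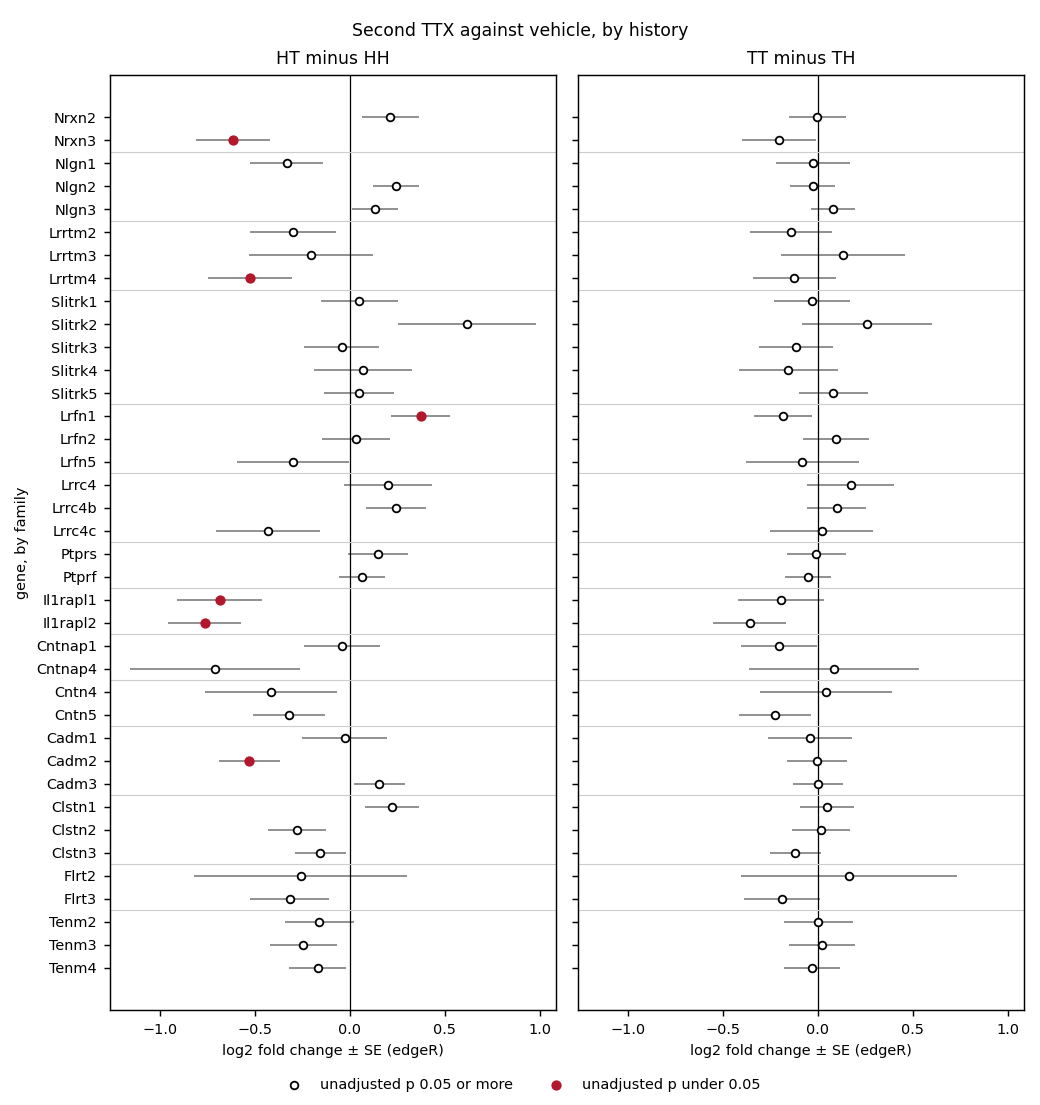
Log2 fold change ± SE (edgeR, n = 2 libraries per group) of the 38 synaptic adhesion genes after the second TTX, without earlier TTX (HT minus HH, left) and with it (TT minus TH, right); filled points have an unadjusted p under 0.05. On the left 6 genes are filled, 5 of them lower and Lrfn1 higher; on the right 0 are filled and all values lie between -0.36 and 0.26.

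In cultures silenced before, TT versus TH, changes were small. The 38 log2 changes ran from -0.36 for Il1rapl2 to 0.26 for Slitrk2, with 22 below 0 (57.9%), against 49.1% of all tested genes, and a median of -0.016. No gene had an unadjusted p under 0.05, against 2.64% of all tested genes. Both TT libraries lay below both TH libraries in 2 genes (14.1% of all tested genes), and above them in 3 (15.9%). After Il1rapl2 the smallest p belonged to Lrfn1 (0.253), Cntn5 (0.256) and Nrxn3 (0.319), unadjusted p from edgeR, with an adjusted p of 1.00 for each. Leaving out 1 library gave a count of 0 to 2, the highest without TH replicate 1 (1.87% of all tested genes in that fit).

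Averaged over history, the second TTX gave 4 genes with an unadjusted p under 0.05, all lower (10.5%), against 2.59% of all tested genes. Of all 38, 24 lay below 0, against 50.3% of all tested genes. The 4 were Il1rapl2, Nrxn3, Il1rapl1 (-0.44 ± 0.16, edgeR unadjusted p = 0.0179) and Cadm2 (-0.27 ± 0.11, edgeR unadjusted p = 0.0351). Their adjusted p lay between 0.293 and 0.668. In 0 of the 38 genes did the 4 libraries given the second TTX stand wholly apart from the 4 given vehicle, against 1.64% of all tested genes lower and 2.69% higher. Leaving out HH replicate 1 kept 2 of the 4 at an unadjusted p under 0.05 in edgeR's test, Il1rapl2 at 0.00309 and Nrxn3 at 0.0352, against 7.99% of all tested genes, and the median over the 38 was then 0.014 in place of -0.079. With HH replicate 1 and HT replicate 1 both left out the 2 genes were Il1rapl2 and Il1rapl1. With the share of all tested genes in the same fit, the count was 12 without HH replicate 2 (10.9%), 7 without TH replicate 1 (5.30%), 1 without TT replicate 1 (5.75%), 2 without TH replicate 2 (8.61%) and 2 without HT replicate 2 (5.31%).

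Markers of other cells differed with the second TTX too, although none passed the adjusted threshold. Summed levels of 7 oligodendrocyte progenitor markers were 580.2 and 612 CPM in TT, 477 and 521 in TH, 581 and 628 in HT, and 401 and 446 in HH. All 7 lay above 0 in both comparisons, with median log2 changes of 0.27 in TT versus TH and 0.50 in HT versus HH. The 8 proliferating-cell markers summed to 235 and 229 CPM in TT, 149.7 and 171 in TH, 206 and 259 in HT, and 148 and 142 in HH, and all 8 lay above 0 in both comparisons as well. Astrocyte markers summed to 1877 and 1789 CPM in TT, 1629 and 1474 in TH, 2074 and 1697 in HT, and 1775 and 1420.4 in HH. Of the 9, 8 lay above 0 in TT versus TH and 9 in HT versus HH. Oligodendrocyte markers summed to 184 and 322 CPM in TT and 199.7 and 199 in TH. They summed to 173 and 183 CPM in HT and 136 and 188 in HH. Medians over the 5 tested were 0.66 in TT versus TH and 0.54 in HT versus HH. Of the 5, 4 lay above 0 in each comparison, and the Mbp libraries overlapped in both. Summed levels of 10 inhibitory neuron markers were 586 and 669 CPM in TT, 881 and 688 in TH, 696 and 654 in HT, and 1132 and 889 in HH. Of the 9 tested, 8 lay below 0 in TT versus TH and 6 in HT versus HH. Pvalb, left out by the filter, was at 0 in 4 libraries. Of the 8 excitatory neuron markers, 7 lay below 0 in TT versus TH and 6 lay above 0 in HT versus HH. The part of all these markers in the values of Il1rapl2, Nrxn3 and Cadm2 was not tested.

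What the earlier silence left under vehicle is asked by TH versus HH. Of the 38 genes 25 lay below 0 (65.8%), against 49.8% of all tested genes, with a median of -0.11 against 0.0011. An unadjusted p under 0.05 was found for 3 genes, all lower (7.89%), against 2.02% of all tested genes. Both TH libraries lay below both HH libraries in 5 genes (13.4% of all tested genes), and above them in 1, Nlgn3 (16.7%). The 3 were Il1rapl2 (-0.53 ± 0.19, edgeR unadjusted p = 0.0184), Clstn3 (-0.33 ± 0.13, unadjusted p = 0.0323) and Lrrtm4 (-0.49 ± 0.22, unadjusted p = 0.0484), each with an adjusted p of 0.891. Cntnap4 stood at -0.99 ± 0.45, Flrt2 at -0.96 ± 0.57 and Cntn4 at -0.74 ± 0.35, beside HH replicates that differed by 1.49, 1.62 and 1.00 on the log2 scale. HT versus HH and TH versus HH share the HH libraries, so their likeness is no independent result. With HH replicate 1 left out no gene had an unadjusted p under 0.05 here (edgeR), the median was -0.030 and 26 genes lay below 0. The direction turned for 13 genes, Flrt2 among them at 0.073 ± 0.34, while Cntnap4 stood at -0.060 ± 0.20 and Cntn4 at -0.16 ± 0.26. The count was 14 without HH replicate 2 (14.4% of all tested genes in that fit) and 1 without TH replicate 1 (5.20%). Without HH replicate 2 Cntnap4 stood at -1.56 and passed the adjusted threshold (edgeR adjusted p = 0.00271), as did 121 genes in all. All 10 activity-response markers lay below 0 in TH versus HH, with a median of -1.56. Their summed level was 1372 CPM in HH replicate 1 but 394 in HH replicate 2, beside 388 and 432 in TH. The part of these markers in the values above was not tested.

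The earlier silence under the second TTX is given by TT versus HT. Of the 38 genes 26 lay below 0 (68.4%), against 49.9% of all tested genes, with a median of -0.098. Both TT libraries lay below both HT libraries in 9 genes (16.2% of all tested genes), and above them in 3 (18.2%). Lrfn1 was the gene with an unadjusted p under 0.05, against 2.35% of all tested genes, at -0.51 ± 0.15 (edgeR unadjusted p = 0.00586, adjusted p = 1.00), and it ranked 16 among all genes tested. Clstn3 (-0.29 ± 0.13), Slitrk4 (-0.45 ± 0.26) and Nlgn2 (-0.19 ± 0.12) followed, each with TT libraries below HT libraries. Slitrk4 had 14.9 and 14.7 CPM in TT, 16.0 and 16.999 in TH, 23.5 and 16.8 in HT, and 24.4 and 14.6 in HH. HT replicate 1 and HH replicate 1 were its high libraries. Without HT replicate 1 the median over the 38 genes was 0.0043, and the count at an unadjusted p under 0.05 was 0 without TT replicate 2 (1.17% of all tested genes in that fit). It was 2 without TT replicate 1 (2.86%), HT replicate 2 (3.56%), HH replicate 1 (3.83%) or HH replicate 2 (3.89%).

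**Figure D5:**
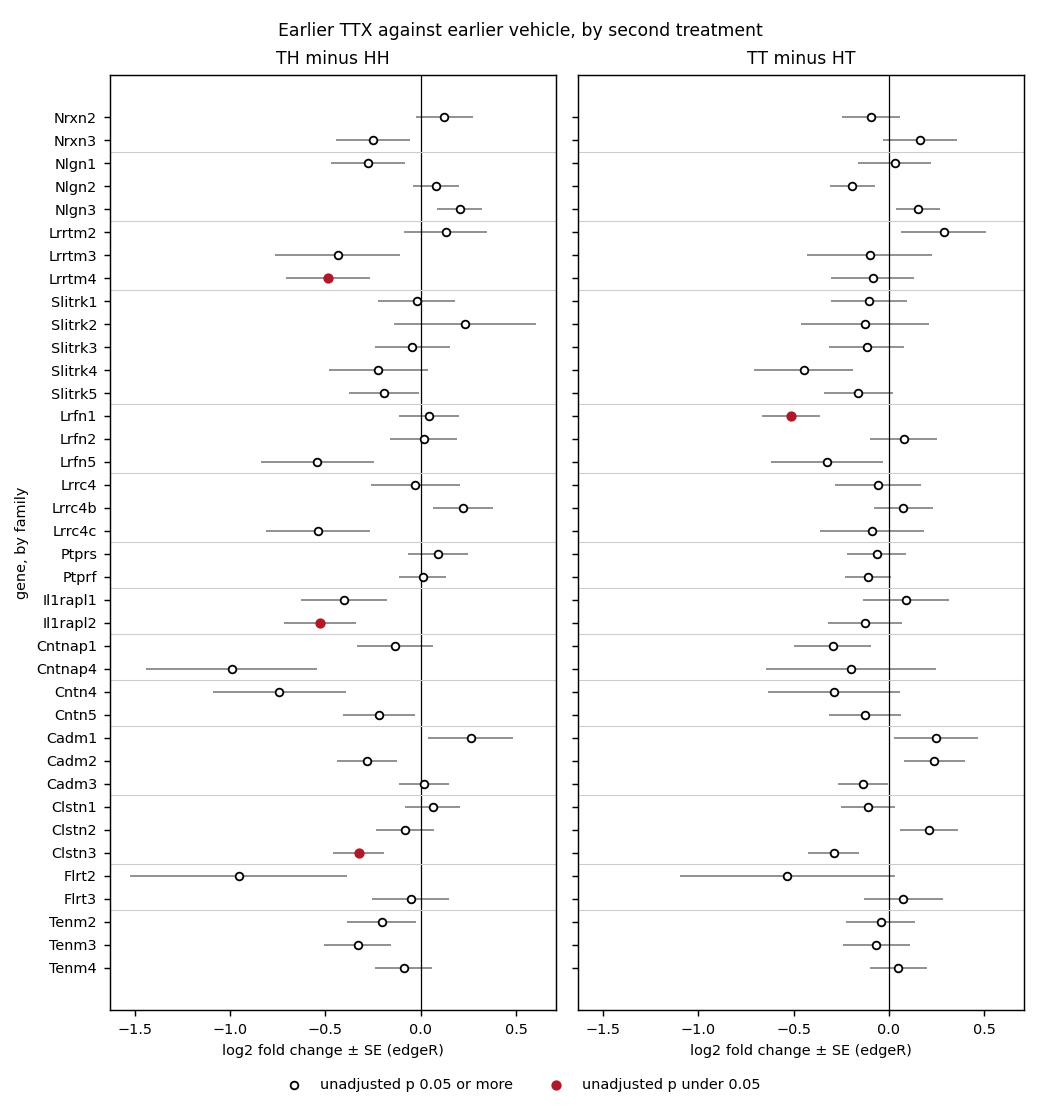
Log2 fold change ± SE (edgeR, n = 2 libraries per group) of the 38 synaptic adhesion genes for an earlier TTX against an earlier vehicle, under vehicle (TH minus HH, left) and under the second TTX (TT minus HT, right); filled points have an unadjusted p under 0.05. On the left Il1rapl2, Clstn3 and Lrrtm4 are filled, on the right Lrfn1, all of them below 0.

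Averaged over the second treatment, 28 of the 38 genes lay below 0 with an earlier TTX (73.7%), against 50% of all tested genes, and the median was -0.072. The 4 libraries with earlier TTX lay below the 4 without it for 2 genes, Clstn3 and Slitrk5, against 1.17% of all tested genes, and above them for 1, Nlgn3, against 1.73%. Clstn3, a calsyntenin known to promote synapse formation, had 151 and 132 CPM in TT, 159 and 149 in TH, 179 and 168 in HT, and 211 and 175 in HH. Every TT and TH library was below every HT and HH library, and the log2 change was -0.31 ± 0.095 (edgeR unadjusted p = 0.00735, adjusted p = 0.814). It was -0.24 ± 0.096 without HH replicate 1 (unadjusted p = 0.0264 in that edgeR fit). Slitrk5 had 19.9 and 19.1 CPM in TT, 16.9 and 19.8 in TH, 21.99 and 21.6 in HT, and 21.9 and 20.3 in HH. Its log2 change was -0.18 ± 0.13, on 61 to 98 counts per library. Nlgn3, a neuroligin known from both excitatory and inhibitory synapses, had 119 and 133 CPM in TT, 120.2 and 118 in TH, 114 and 113 in HT, and 102 and 104 in HH. Its change was 0.18 ± 0.083 (edgeR unadjusted p = 0.0547, adjusted p = 0.814), small but with no overlap. The 2 genes with an unadjusted p under 0.05 were Clstn3 and Il1rapl2 (-0.33 ± 0.14), both lower, against 2.74% of all tested genes lower. With HH replicate 1 and HT replicate 1 both left out there were 0, in the same test, and Il1rapl2 stood at -0.080 ± 0.12. With the share of all tested genes in the same fit, the count was 14 without HH replicate 2 (13.9%), 6 without HT replicate 2 (7.19%) and 4 without TH replicate 2 (3.66%). It was 1 without HH replicate 1 (4.30%), HT replicate 1 (3.21%), TT replicate 1 (4.89%) or TT replicate 2 (2.60%). All 10 activity-response markers lay below 0 for history, with a median of -1.04. They summed to 1372 CPM in HH replicate 1 and to between 388 and 565 CPM in the other libraries. Of other markers, 6 of 7 for oligodendrocyte progenitors lay above 0 and 7 of 9 for inhibitory neurons below it. Their part in the result was not tested.

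Whether the response to the second TTX differed by history was tested as an interaction. No gene passed the adjusted threshold, and 2 of 38 (5.26%) had an unadjusted p under 0.05, against 1.64% of all tested genes. Values above 0 were found for 22 of the 38, against 51.2% of all tested genes, and the median was 0.077. Lrfn1 stood at -0.56 ± 0.22 (edgeR unadjusted p = 0.0256, adjusted p = 1.00), with -0.18 in TT versus TH and 0.37 in HT versus HH. Cadm2 stood at 0.52 ± 0.22 (edgeR unadjusted p = 0.0393, adjusted p = 1.00), with -0.0070 in TT versus TH and -0.53 in HT versus HH. Nlgn2 (-0.27 ± 0.17) and Il1rapl1 (0.49 ± 0.32) followed. The Cadm2 value was 0.32 ± 0.21 and that of Lrfn1 -0.58 ± 0.25 without HH replicate 1. All 10 activity-response markers lay above 0 in the interaction, with a median of 1.17. Their sum was 1372 CPM in HH replicate 1 and between 388 and 565 CPM in the other libraries. The part of these markers in the values above was not tested. The count was 10 without HH replicate 2 (7.62% of all tested genes in that fit), and 0 without TT replicate 2 (1.27%), HT replicate 1 (1.83%) or HT replicate 2 (1.21%).

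A wider list of 70 further adhesion molecules and partners, among them latrophilins, cadherins, cerebellins and ephrins, had 61 rows and 59 tested genes. None passed the adjusted threshold in any comparison (edgeR). An edgeR p under 0.05 without adjustment was found for 0 genes in HT versus HH (6.49% of all tested genes) and 1 in TT versus TH (2.64%). It was found for 5 in TH versus HH (4.08%), 2 in TT versus HT (2.35%) and 0 in the interaction (1.64%). The second TTX averaged over history had 0 (6.94%), and history averaged over the second treatment 7 (5.75%). Its median log2 change was -0.12 in HT versus HH and -0.10 in TH versus HH, beside -0.16 and -0.11 for the 38 genes. The smallest p of the second TTX effect, averaged over history, belonged to Nfasc, an axonal adhesion gene, at 0.22 ± 0.12. Next came Elfn1, a postsynaptic organiser of interneuron inputs, at -0.16 ± 0.095. Lgi2, a secreted relative of the epilepsy protein LGI1, was named after its values were seen. It had the smallest p of the list for history averaged over the second treatment, at -1.29 ± 0.28 (edgeR unadjusted p = 0.000776, adjusted p = 0.814). The libraries with earlier TTX lay wholly below those without it in 0 genes of the list, so those of Lgi2 overlapped. Over all tested genes that share was 1.17%.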

How the data were processed

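Whole-number read counts for 16871 gene symbols were deposited by the authors without normalization. Per the submitters' processing notes, the tools were FastQC, Bowtie2, TopHat2 and featureCounts, and the build rn6. Not given in the sources used here are versions, annotation, strand setting and the treatment of introns. Much nascent RNA is unspliced, so a count of exons alone would lower long genes, and overlapping or antisense genes may share reads. The number opening each description matched a column to its sample, and 2 columns with no match were left unused. No batch or date is in the labels.

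The analysis used R 4.3.3 and edgeR 4.0.16: TMM scaling, the expression filter, 1 model of the 4 group means, the robust quasi-likelihood test and Benjamini-Hochberg adjustment at 0.05 over 11372 genes. It was tested on simulated counts. Each SE, worked back from the log2 change and the F statistic, rests on the spread within all 4 groups. The common biological coefficient of variation was 0.128. Log2 deviations use a prior count of 2. Replicates differed beyond sampling noise in each group, with chi-square values of 4.00 to 11.1 times the degrees of freedom, so each library was counted once. Alternatives were size factors and the test of DESeq2 1.42.0, no low-count filter, a replicate block, fits of the groups compared and leaving libraries out.

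Genes given with every library's value were, by rule, the 4 of smallest p in each comparison and the gene of highest mean CPM in each family; Lrrtm3, Cntn4 and Slitrk5 were added after their values were seen. Members, lists and tests were chosen with earlier results of these data known. Marker lists described the cultures. Those for microglia (8 genes), endothelial cells (6) and oligodendrocytes (7) summed to 10.9 to 17.1, 54.1 to 99.4 and 136 to 322 CPM over the libraries. Matplotlib 3.10.9 under Python 3.11.15 drew the figures.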

Additional observations from a re-analysis of the deposited data

How the results depend on the processing

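With DESeq2 size factors, no low-count filter, the DESeq2 test, the replicate block or only the groups compared, 0 of the 38 genes passed the adjusted threshold in any comparison. Over all genes, 16 passed without the filter (0.107%) and 12 in the DESeq2 test (0.0804%), for the second TTX averaged over history. Leaving out 1 library each time, the only genes of the 38 to pass were Il1rapl2 and Cntnap4. They passed only without HH replicate 2, with HH replicate 1 as the lone control. Counts at an unadjusted p under 0.05, a measure added after the data were seen, then ran from 1 to 16 in HT versus HH, 0 to 2 in TT versus TH, 0 to 14 in TH versus HH, 0 to 2 in TT versus HT and 0 to 10 in the interaction. These counts ran from 1 to 12 for the second TTX averaged over history and from 1 to 14 for history averaged over the second treatment. Median log2 changes ran from -0.20 to 0.020 in HT versus HH, -0.11 to 0.035 in TT versus TH, -0.22 to -0.030 in TH versus HH, -0.14 to 0.0043 in TT versus HT and -0.048 to 0.19 in the interaction. These medians ran from -0.15 to 0.014 for the second TTX averaged over history and from -0.15 to -0.069 for history averaged over the second treatment. The counts of 10 to 16 came without HH replicate 2.

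A fit with HH replicate 1 and HT replicate 1 both left out was added after the data were seen. Its medians were -0.020 in HT versus HH, -0.031 in TH versus HH and -0.00020 in TT versus HT. They were -0.016 for the second TTX averaged over history and -0.0021 for history averaged over the second treatment. Fits of only the groups compared gave unadjusted counts of 1 in TT versus TH (3.84% of all tested genes) and 2 in TT versus HT (4.11%). DESeq2 gave 1 in the interaction (0.261%). Replicate numbers were not shown to pair the libraries: rep 1 against rep 2 differences correlated across genes, which are not replicates, at 0.45 between HT and HH and at -0.066 to 0.087 between the other pairs of groups. The replicate block changed no adjusted call. It gave unadjusted counts of 2 in TT versus HT (2.97% of all tested genes) and 1 in the interaction (1.66%). For history averaged over the second treatment it gave 6 (6.85%). For 28 gene results, the 4 of smallest p in each comparison, direction turned in 1 of 380 refits. They were picked by p in these same data, so this count does not speak for the other genes. The 1 was Cntn5 in TT versus TH, at -0.47 to 0.066 when 1 library was left out. It turned to its upper value without TH replicate 2. Over all 38 genes more turned. Without HH replicate 1 the direction changed for 11 in HT versus HH and 2 in TT versus TH. It changed for 13 in TH versus HH, 0 in TT versus HT and 14 in the interaction. For the second TTX averaged over history it changed for 12, and for history averaged over the second treatment for 11. With HT replicate 1 left out as well it changed for 5 in HT versus HH. The cause was not tested. With 2 libraries per group, changes of about 4 times their printed error, such as that of Il1rapl2, did not pass the adjusted threshold.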
